A study of Mus musculus with 141 samples.

Results

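*Lrp2*, *Cubn*, *Amn*, *Dab2*, *Tmem27*, *Tmem174*, *Kap* and *Miox* are 8 genes of the kidney proximal tubule, and they were chosen by symbol from the 24423 genes in the files. All 8 were found, and all 8 passed the filter on low counts. Their RNA was measured by RNA-seq in whole kidney, liver and lung of male mice from the Collaborative Cross, whose inbred strains each carry a different mosaic of several founder genomes. The 3 groups were 47 kidneys, 47 livers and 47 lungs, and each of the 47 strains gave 1 mouse and 1 library per tissue. All mice were males of 8 to 12 weeks of age, carried no engineered allele named in the labels, and had the same exposure, 6 hours of clean air a day on weekdays for 2 weeks. A strain was thus represented by a single mouse, so strain differences and differences between individual mice cannot be told apart.

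The proximal tubule takes back nearly all protein that passes the glomerular filter. Megalin, encoded by *Lrp2*, and cubilin, encoded by *Cubn*, are the large receptors of its brush border that bind filtered albumin, vitamin carriers and small proteins, amnionless, encoded by *Amn*, carries cubilin to the membrane, and the adaptor encoded by *Dab2* links megalin to the clathrin coat. The other members mark the same cells by different functions. Collectrin, encoded by *Tmem27*, places amino acid transporters at the brush border, *Tmem174* encodes a membrane protein of the tubule, *Kap* encodes an androgen-regulated protein of mouse kidney, and *Miox* encodes the oxygenase that opens the ring of myo-inositol.

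Levels are CPM, counts scaled to a common library size, after trimmed mean of M-values (TMM) scaling unless TPM, which corrects for transcript length, is named. Total counts ranged from 3046695 to 15028553 in kidney, from 1738046 to 42158454 in liver and from 2829104 to 17585682 in lung. The ribosomal gene *Rn45s* took between 0.146% and 63.1% of the counts in kidney, with a median of 25.4%. Some libraries stood apart for these genes. The livers of CC033, CC035 and CC036 held *Kap* above 1% of the level in the same mouse's kidney, which no other liver did, and the kidney of CC020 was the lowest of all 47 kidneys for *Lrp2*, *Cubn*, *Tmem174* and *Miox*. Member correlations in liver and kidney, relations to kidney markers and the differences between liver and lung of *Lrp2*, *Cubn*, *Kap* and *Miox* are given with and without them. Other values include these libraries unless stated. Whole kidneys were measured, so fewer proximal tubule cells and less RNA per cell cannot be told apart.

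All 8 genes were higher in kidney than in liver and than in lung at q ≤ 0.1 and a log2 fold change of at least 1 in the limma fit. Of all 12127 genes tested, 20.8% were called higher in kidney than in liver and 20.6% higher in kidney than in lung. The 47 kidneys did not overlap the 47 livers or the 47 lungs for 7 of the 8, all but *Dab2*. Over all genes tested, every kidney lay above every liver for 6.92% and above every lung for 12.5%, and every kidney lay below every liver for 6.28% and below every lung for 10.1%. *Kap*, *Tmem174* and *Tmem27* were already known to lead the kidney side of these comparisons when the genes were chosen, and their folds are given as description. The low-count filter asked for more than 1 CPM in at least 30% of all libraries, which the 47 kidneys alone could meet. *Tmem174*, *Tmem27*, *Amn* and *Dab2* passed it only through kidney, with medians of at most 0.470 CPM in liver and 0.433 CPM in lung. The filter thus favored their calls and any lack of overlap, which are description as well.

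**Figure D1:**
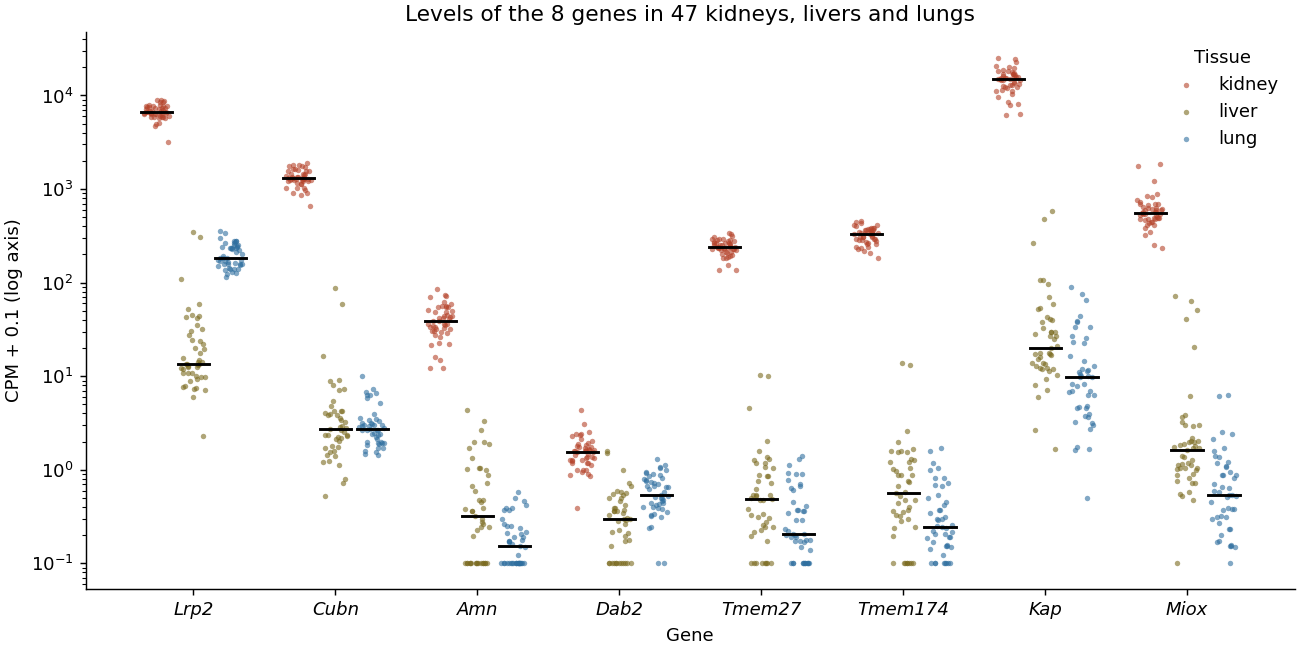
Level of each gene in each library of the 3 tissues as CPM plus 0.1 on a log axis. Points are libraries colored by tissue, and black bars are medians over 47 libraries. The kidney points lie clear of the liver and lung points for every gene except *Dab2*, and *Lrp2* is the gene whose lungs lie above its livers by the widest margin.

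*Lrp2* lies on chromosome 2 on the minus strand (NCBIM37, 69262397 to 69424122), and its annotated transcript with the most exons has 79. In kidney it ranged from 3188 CPM in CC020 through a median of 6721 to 9031 CPM in CC024. In liver it ranged from 2.20 CPM in CC068 through a median of 13.5 to 350.4 CPM in CC033. In lung it ranged from 114 CPM in CC030 through a median of 185 to 352 CPM in CC039. Every library held *Lrp2* above 3 counts, taken as the floor, and among the livers only those of CC033 and CC035 reached the range of the lungs. Kidney exceeded liver by 8.54 on the log2 scale (SE 0.12, q = 8.4e-84) and lung by 5.10 (SE 0.12, q = 6.1e-65), in 47 of 47 strains each time. *Lrp2* was the only member called lower in liver than in lung (log2 fold change -3.45, SE 0.12, q = 1.2e-48), with liver higher in 2 of 47 strains, although *Dab2* was called lower as well by the DESeq2 Wald test (-1.22). Without the 3 livers that stood apart this difference was -3.67.

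*Cubn*, also on chromosome 2 on the minus strand (13197965 to 13413551), has up to 67 exons in a transcript, and a noncoding gene on the opposite strand, Gm13270, overlaps its 3′ end. Whether reads were counted by strand is not given in the sources used here. In kidney it ranged from 667 CPM in CC020 through a median of 1297 to 1887 CPM in CC053. In liver it ranged from 0.426 to 86.7 CPM around a median of 2.60, and in lung from 1.34 to 9.87 CPM around a median of 2.63. The medians of liver and lung were thus nearly equal, while the 3 highest livers, CC033, CC035 and CC036, lay above every lung. The log2 fold change was 8.76 against liver (SE 0.11, q = 1.4e-88) and 8.85 against lung (SE 0.10, q = 2.7e-91). The difference between liver and lung did not pass the threshold (log2 fold change 0.09, SE 0.11, q = 0.416), and it was -0.16 without the 3 livers that stood apart.

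The promoters of *Lrp2* and *Cubn* are shown because these genes encode partner receptors and varied together across kidneys. They are RefSeq promoters on build GRCm38.p6, from 250 bases before to 50 bases after the transcription start, written 5′ to 3′ on the gene's strand, at chr2:69585980-69586279 for *Lrp2* and chr2:13491827-13492126 for *Cubn*, both on the minus strand. The searched motifs were GTTAAT for the factor HNF1, CAAAGTCC for HNF4, AGAACA for the androgen receptor and TATAAA for the TATA box. GTTAAT and AGAACA are each only a part of the full site, and CAAAGTCC is a core. Both strands were searched, no matches overlapped, and matches are printed in capitals. None was found in either window.
Lrp2: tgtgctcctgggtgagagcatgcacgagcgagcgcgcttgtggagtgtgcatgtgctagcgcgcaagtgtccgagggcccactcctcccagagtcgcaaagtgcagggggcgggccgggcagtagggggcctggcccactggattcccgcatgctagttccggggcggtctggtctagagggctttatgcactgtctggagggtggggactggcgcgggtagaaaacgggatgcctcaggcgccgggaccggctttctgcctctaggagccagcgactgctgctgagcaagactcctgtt
Cubn: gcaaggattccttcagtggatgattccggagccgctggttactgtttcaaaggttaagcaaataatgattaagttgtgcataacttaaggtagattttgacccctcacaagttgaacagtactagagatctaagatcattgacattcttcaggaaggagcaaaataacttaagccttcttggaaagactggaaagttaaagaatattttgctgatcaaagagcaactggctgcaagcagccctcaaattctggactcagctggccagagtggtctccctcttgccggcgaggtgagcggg
Over all 32851 promoters of the table, GTTAAT was found in 7.10%, CAAAGTCC in 1.42%, AGAACA in 19.0% and TATAAA in 13.6%.

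*Amn* spans 12 exons on chromosome 12 (plus strand, 112509322 to 112514637). It ranged in kidney from 12.2 CPM in CC001 through a median of 38.8 to 85.5 CPM in CC038. It was at or under 3 counts in 33 of 47 livers and 41 of 47 lungs, and its highest liver, CC039, held 4.26 CPM. The fitted log2 fold changes of 6.41 against liver (SE 0.15, q = 1.6e-62) and 8.55 against lung (SE 0.16, q = 1.5e-72) depend on how counts near 0 are treated. All 47 kidneys lay above all livers and lungs.

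*Dab2* (chromosome 15, plus strand, 6249788 to 6390712) was the member least set apart by tissue. It ranged in kidney from 0.287 CPM in CC044 through a median of 1.43 to 4.30 CPM in CC061, in liver from 0 to 1.48 CPM with a median of 0.198, and in lung from 0 to 1.20 CPM with a median of 0.433. Kidney was higher than liver in 44 of 47 strains and higher than lung in 45 of 47. The log2 fold changes were 2.37 (SE 0.18, q = 1.8e-22) and 1.65 (SE 0.18, q = 1.8e-14). The counts behind them were few, with medians of 13 in kidney, 1 in liver and 6 in lung. *Dab2* has 5 RefSeq transcripts in the files and *Tmem27* has 2, while the other members have 1. Only uniquely aligned reads were counted, and across the files the 6112 genes with more than 1 transcript had a median kidney level of 0.140 CPM, against 0.704 CPM over the 18311 genes with 1. The part of this difference in the level of *Dab2* was not tested. A second gene model of the same name and an antisense gene, Gm16311, also lie within *Dab2*.

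*Tmem27* (chromosome X, plus strand, 160526762 to 160556792) ranged in kidney from 136 CPM in CC021 through a median of 238 to 342 CPM in CC024. It was at or under 3 counts in 30 livers and 33 lungs, with medians of 0.390 CPM in liver and 0.105 CPM in lung. *Tmem174* (chromosome 13, minus strand, 99404933 to 99407365) ranged in kidney from 183 CPM in CC020 through a median of 330.3 to 456 CPM in CC025. It was at or under 3 counts in 26 livers and 31 lungs, with medians of 0.470 and 0.145 CPM. The fitted log2 fold changes were 8.99 (SE 0.13) and 10.39 (SE 0.14) for *Tmem27* against liver and lung. They were 9.22 (SE 0.14) and 10.60 (SE 0.14) for *Tmem174*. As for *Amn*, these folds depend on how counts near 0 are treated. On log2(TPM + 1), without TMM, the differences against liver and lung were 8.45 and 8.48 for *Tmem27* and 8.20 and 8.23 for *Tmem174*. Both genes had their highest liver in CC033, at 10.2 and 13.6 CPM, and their second highest in CC035.

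*Kap* lies on chromosome 6 (minus strand, 133799873 to 133803685). In kidney it ranged from 6212 CPM in CC016 through a median of 15067 to 25436 CPM in CC005. It took a median of 1.83% of all kidney counts, and up to 4.04% in a single library. In liver it ranged from 1.57 CPM in CC068 through 19.9 to 581 CPM in CC035, and in lung from 0.401 CPM in CC037 through 9.79 to 90.7 CPM in CC001. Kidney exceeded liver by 9.21 on the log2 scale (SE 0.18) and lung by 10.56 (SE 0.19).

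*Miox* (chromosome 15, plus strand, 89164829 to 89167446) ranged in kidney from 233 CPM in CC020 through a median of 553 to 1838 CPM in CC068. The second highest kidney, CC036, held 1767 CPM. In liver it ranged from 0 to 72.4 CPM with a median of 1.55, and in lung from 0 to 6.26 CPM with a median of 0.434. The log2 fold changes were 7.93 against liver (SE 0.16, q = 3.9e-70) and 10.02 against lung (SE 0.18, q = 3.2e-75), in 47 of 47 strains.

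The promoters of *Kap*, *Miox* and *Tmem27* are shown because they held some of the motifs searched, which are in capitals. *Kap* (chr6:133853618-133853917, minus strand) has TATAAA from base -31 to -26 before the start. It held no other motif searched, AGAACA of the androgen receptor included. *Miox* (chr15:89334223-89334522, plus strand) has TATAAA from base -40 to -35 and GTTAAT on the opposite strand from base -142 to -137. The upstream promoter of *Tmem27*, listed in the table as *Cltrn* (chrX:164089937-164090236, plus strand), has GTTAAT on both strands, at bases -54 to -49 and, reversed, at bases -73 to -68.
Kap: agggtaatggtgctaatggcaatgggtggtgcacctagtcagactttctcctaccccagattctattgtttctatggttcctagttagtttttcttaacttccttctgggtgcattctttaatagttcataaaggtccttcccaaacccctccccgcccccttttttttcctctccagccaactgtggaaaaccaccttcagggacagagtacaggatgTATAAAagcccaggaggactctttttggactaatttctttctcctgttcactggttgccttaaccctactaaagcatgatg
Miox: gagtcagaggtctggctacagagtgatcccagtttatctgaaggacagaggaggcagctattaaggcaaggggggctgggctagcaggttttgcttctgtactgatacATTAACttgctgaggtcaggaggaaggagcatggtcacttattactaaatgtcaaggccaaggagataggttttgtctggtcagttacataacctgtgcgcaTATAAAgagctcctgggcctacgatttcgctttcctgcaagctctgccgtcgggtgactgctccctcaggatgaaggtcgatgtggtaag
Tmem27: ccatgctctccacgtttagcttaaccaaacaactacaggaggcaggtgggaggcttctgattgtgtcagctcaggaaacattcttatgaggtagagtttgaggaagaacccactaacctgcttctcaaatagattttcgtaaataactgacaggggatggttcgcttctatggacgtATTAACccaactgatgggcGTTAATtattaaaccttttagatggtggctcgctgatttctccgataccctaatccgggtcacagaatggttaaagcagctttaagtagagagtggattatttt
RefSeq promoters were matched for 7 of the 8 genes, all but *Tmem174*. The second promoter of *Tmem27* held AGAACA, the downstream promoter of *Dab2* held GTTAAT, and the *Amn* promoter held no motif searched. A match of letters is a description and not a binding site.

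Levels of different genes were compared per transcript length. By median TPM as deposited, the order in kidney was *Kap* (87761), *Miox* (1764), *Lrp2* (1378), *Tmem27* (650.4), *Tmem174* (437), *Cubn* (381), *Amn* (70.9) and *Dab2* (1.09). Each neighbor in this order differed from the next within libraries in a two-sided sign-flip permutation test of log2(TPM + 1). For all 7 pairs q was 1e-05, from the smallest p that 100000 resamples can give. The order was taken from the same kidneys, so these tests are description and no separate support for it. *Dab2* and *Tmem27* have 5 and 2 transcripts, and the part of counting only uniquely aligned reads in their places was not tested. *Miox* exceeded *Lrp2* in 39 of 47 kidneys and *Tmem174* exceeded *Cubn* in 39 of 47, so these steps were not seen in every mouse. *Tmem27* exceeded *Tmem174* in 44, and the other 4 steps held in all 47. *Lrp2*, which led *Cubn* by a median of 3.80 times per length, did so by 2.62 times in CC021 and 5.21 times in CC035. *Cubn* led *Amn* by a median of 4.89 times, from 2.24 times in CC020 to 15.9 times in CC001.

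**Figure D2:**
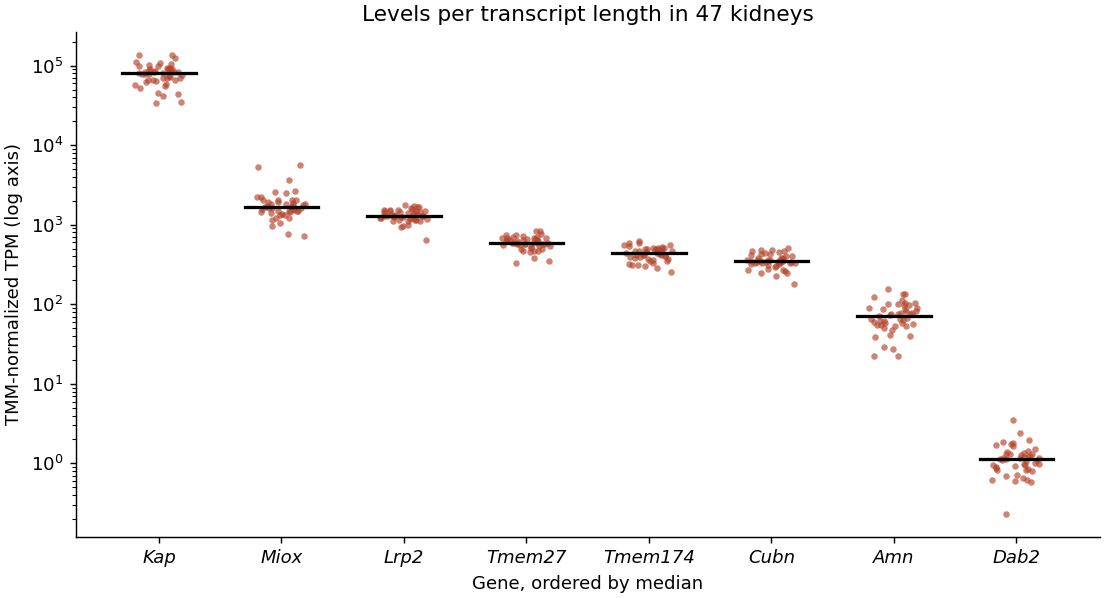
TMM-normalized TPM of the 8 genes in 47 kidneys on a log axis, ordered by median TPM. Points are kidneys and bars are medians. *Kap* lies far above the other 7, *Dab2* far below, and *Miox* and *Amn* show wide spreads.

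Most other genes of the endocytic route that were listed and tested did not pass the threshold between tissues. The shares called higher in kidney were near those over all genes. The partners of megalin and cubilin listed are trafficking adaptors, clathrin parts, Rab proteins and endosomal factors. Of 25 tested, 6 were higher in kidney than in liver, beside 20.8% of all genes. Against lung, 7 were higher and none was lower, beside 20.6% of all genes higher and 25.5% lower in kidney than in lung. Over all genes, 15.6% were lower in kidney than in liver. Part of the list was at low levels in every tissue. Mean kidney levels were 1.17 CPM for *Ap2m1*, 1.14 for *Ap2b1* and 0.99 for *Inpp5b*, while *Cltc* was at 501 CPM. *Rab7* (0.755 CPM), *Ap2a1* (0.298) and *Clta* (0.214) were not tested for tissue differences. The part of counting only uniquely aligned reads in these low levels was not tested. *Lrpap1*, the chaperone of megalin, was higher by 2.64 against liver (SE 0.06, q = 4.6e-67) and 2.53 against lung, at 404 ± 67.4 CPM in kidney (SD, n = 47), 65.3 ± 17.0 in liver and 70.7 ± 13.8 in lung. *Myo6*, a motor that moves endocytic vesicles, was higher by 2.03 against liver and 2.02 against lung. *Rab38*, a trafficking GTPase, was higher by 4.19 against liver, and *Clcn5*, the endosomal chloride transporter, by 1.55 against lung. The median log2 fold change of the list was 0.32 against liver and 0.37 against lung, beside 0.0034 and -0.04 over all genes tested. These counts depended on scaling. With total counts in place of TMM, 16 of the 25 were higher than in liver, and 3 were higher and 3 lower than in lung, while the median of all genes moved to 0.95 and -0.46.

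Megalin's relatives were called in both directions. Of 9 tested members of the LDL receptor family, 3 were higher and 2 lower in kidney than in liver, and 1 was higher and 3 lower than in lung. Over all genes tested, 20.8% were higher and 15.6% lower in kidney than in liver, and 20.6% higher and 25.5% lower than in lung. Calls in both directions thus do not set this family apart. The same shares stand beside the counts of the lists that follow. *Lrp1*, the broad scavenger receptor of the family, was lower in kidney (log2 fold change -3.68 against liver and -2.78 against lung), at 136 ± 28.3 CPM in kidney, 1772 ± 501 in liver and 930 ± 177 in lung. *Lrp4* and *Lrp5* were lower than in lung, with log2 fold changes of -2.08 and -1.63. *Sorl1*, a sorting receptor, was higher than in liver by 3.80, and *Vldlr* by 3.72.

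Genes for proteins that megalin and cubilin take up were lower in kidney than in liver almost throughout. Of 11 tested genes for filtered ligands, none was higher in kidney than in liver and 10 were lower, and 3 were higher and 5 lower than in lung. *Alb*, for albumin, was at 74.7 ± 122 CPM in kidney against 75625 ± 21580 CPM in liver, a log2 fold change of -10.84 (SE 0.22). *Apoa1* had a log2 fold change of -10.98 and *Ambp*, for the precursor of a small filtered protein, one of -10.46. Against lung, *Ttr* was higher in kidney by 4.30 and *Apoh* by 3.46, and *Lcn2* was lower (log2 fold change -4.17). Summed hepatocyte markers ranged from 157 to 3727 CPM in kidney and from 84491 to 215938 CPM in liver. These markers include *Alb*, *Apoa1* and *Ttr*, so their sum is not a measure separate from the ligands. The part of hepatocyte RNA in the kidney levels of these ligands was not tested.

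Of the amino acid transporters that collectrin serves, the 3 tested were higher in kidney than in either other tissue, and *Slc6a18* was listed at 0 in all 3 tissues and not tested. All 4 tested genes of the collectrin list were higher in kidney than in liver, and 3 were higher and 1, the peptidase gene *Ace*, was lower than in lung. *Slc6a19*, the main neutral amino acid transporter of the brush border, held 304 ± 103 CPM in kidney and 1.43 ± 3.19 in liver (log2 fold change 8.82). *Slc6a20b* was higher by 6.75 and 6.56, and *Slc1a1* by 7.76 and 3.89, against liver and lung. For *Miox*, 8 of 15 genes of inositol and glucuronate metabolism were higher and 1 lower than in liver, and 9 were higher and none lower than in lung. The inositol transporters *Slc5a11* and *Slc5a3* were higher than in liver by 6.92 and 3.71, while *Gulo*, the last enzyme of vitamin C synthesis, was lower (log2 fold change -10.92). Against lung, *Slc5a11* was higher by 7.80, *Xylb* by 5.73 and *Sord* by 4.76.

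Of 9 androgen-responsive genes of kidney, 6 were higher and 2, *Slco1a1* and *Adh1*, were lower than in liver, and 8 were higher and none lower than in lung. *Cyp2j13* and *Slc7a13* were higher by 9.28 and 9.01 against liver and by 10.23 and 10.26 against lung. *Cyp4b1* was higher by 6.24 against liver, and *Slco1a1* by 9.30 against lung. *Slco1a1* lay close to the fold threshold against liver, and with total counts in place of TMM none of the 9 was lower. Of 20 other proximal tubule genes tested, 16 were higher than in liver and 18 higher than in lung, and none was lower. *Slc34a1*, the phosphate transporter of the brush border, was higher by 9.25 and 10.33, *Slc22a6* by 8.99 and 10.28 and *Mep1a* by 9.06 and 10.11.

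The low levels in liver were set against the kidney of the same mouse. The median over 47 livers was 0.145% of the own kidney for *Kap*, 0.140% for *Tmem174*, 0.147% for *Tmem27*, 0.198% for *Lrp2*, 0.195% for *Cubn* and 0.263% for *Miox*, and it was 0.143% for *Slc34a1*, which is no member. *Amn* and *Dab2* had other medians, 0.546% and 13.6%, which rest on a median of 1 count each in liver. The ratios of *Tmem174* and *Tmem27* rest on median liver counts of 3 and 2. In the liver of CC033 the ratios were 5.66% for *Kap*, 5.51% for *Lrp2*, 5.38% for *Cubn*, 4.35% for *Tmem27*, 3.71% for *Tmem174* and 3.64% for *Slc34a1*, while *Miox* was higher at 9.36%, from 24 counts, and *Amn* and *Dab2* had 0 counts. In the liver of CC035 they were 3.47% for *Kap*, 4.35% for *Lrp2*, 5.95% for *Cubn*, 2.99% for *Tmem27*, 3.39% for *Tmem174*, 4.46% for *Slc34a1*, 2.32% for *Miox*, 5.20% for *Amn* and 29.8% for *Dab2*. Genes of other nephron segments were near 0 in most livers. The 7 markers of the thick ascending limb and distal tubule summed to between 0.852 and 12.6 CPM in liver. Of these, 5 had a median of 0, among them *Umod* and *Slc12a1*. In kidney they summed to a median of only 245 CPM, so low liver levels do not set them apart from the proximal tubule genes. In the liver of CC033, *Umod* was at 26.9% of the own kidney (1.70 CPM), the collecting duct gene *Aqp2* at 5.09% (3.40 CPM) and *Slc12a1* at 0. In the liver of CC035 the ratios were 2.20% for *Umod*, 1.69% for *Aqp2* and 2.61% for *Slc12a1*, from 0.236, 0.709 and 0.945 CPM. Across the 47 livers, *Kap* correlated with *Cubn* (r = 0.913, rho = 0.922, p = 1e-05, the smallest that the permutations can give, q = 1.2e-05 over 6 pairs). Without the 3 livers that stood apart, r was 0.891 over 44. *Kap* and *Lrp2* gave r = 0.849 over 47 livers and 0.792 over 44. All 6 pairs among *Kap*, *Lrp2*, *Cubn* and *Miox* passed q ≤ 0.05 over 47 livers and 5 did over 44, where *Lrp2* with *Miox* gave r = 0.218 and q = 0.156. Where this low signal came from was not tested.

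In lung, the median ratio was 0.0627% for *Kap* and for *Slc34a1*, 0.0487% for *Tmem174*, 0.0452% for *Tmem27*, 0.0895% for *Miox* and 0.108% for *Amn*, and 36.1% for *Dab2*, whose kidney level was itself low. The median lung counts were only 2 for *Tmem174*, 2 for *Tmem27* and 1 for *Amn*. *Lrp2* stood apart with a median of 2.77% and a lowest lung of 1.62%, and *Cubn* had a median of 0.195% and a lowest of 0.0832%. *Kap* in lung correlated with *Cubn* (r = 0.881, rho = 0.847, q = 3.3e-05 over 10 pairs) and with *Miox* (r = 0.798, rho = 0.817, q = 3.3e-05). *Kap* and *Lrp2* gave r = 0.289 (rho = 0.227, q = 0.123) in the same lungs. Without the 2 lungs farthest from the median these values were 0.853, 0.800 and 0.218. *Lrp2* in lung gave r = 0.382 with the alveolar type 2 markers (rho = 0.299, p = 0.00817, q = 0.0928 over 30 relations), and r = 0.212 without the 2 farthest lungs. None of 30 relations of the members to lung cell type markers and none of 16 in liver passed q ≤ 0.05 in permutation tests, with 4 relations in lung and 0 in liver at an unadjusted p under 0.05.

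**Figure D3:**
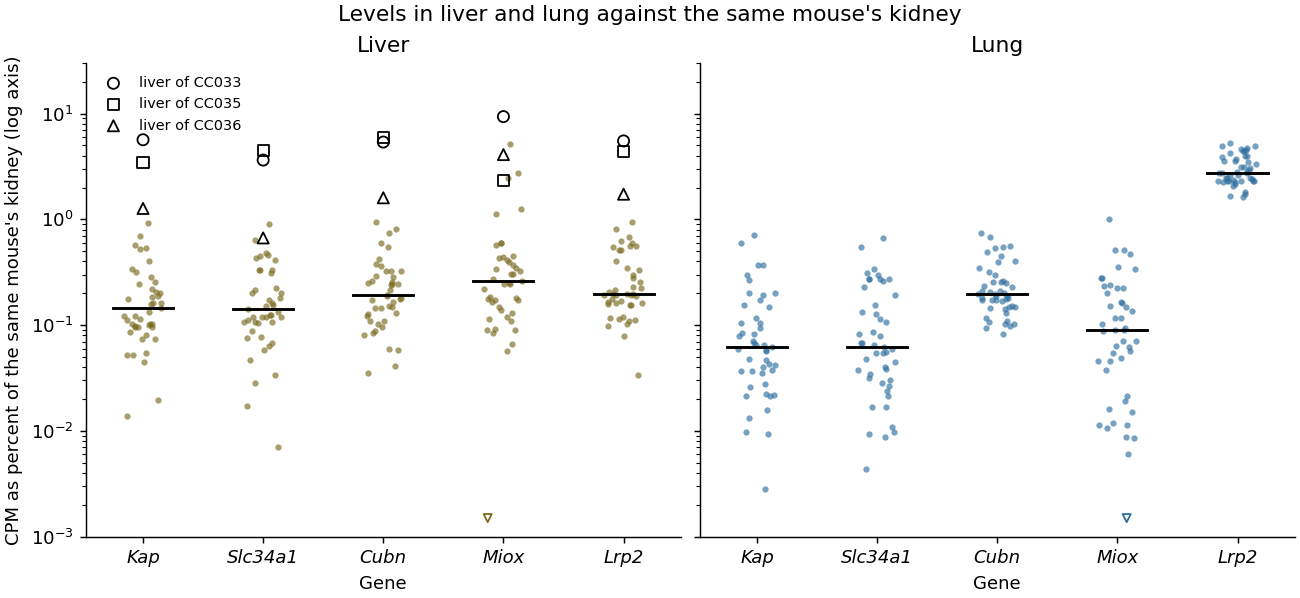
Level in liver (left) and lung (right) as a percentage of the level in the same mouse's kidney, on a log axis, for *Kap*, the proximal tubule gene *Slc34a1*, *Cubn*, *Miox* and *Lrp2*. Points are mice, bars are medians, open black symbols mark the livers of CC033, CC035 and CC036, and open triangles at the bottom edge stand for levels of 0. The lungs hold *Lrp2* at a median of 2.77%, while the other genes have lung medians of at most 0.195%.

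*Miox* differed from the other members in liver. The 3 mice with the highest *Miox* in kidney, CC068, CC036 and CC040, were also the 3 with the highest *Miox* in liver, which was noticed after the values were seen. In kidney they held 1838, 1767 and 1229 CPM, and the fourth highest kidney held 877 CPM. In liver they held 50.4, 72.4 and 63.3 CPM, and the fourth highest liver, CC033, held 40.8 CPM. The liver of CC068 had 641 counts of *Miox* and 20 counts of *Kap*, the lowest *Kap* level of all livers, so its *Miox* was at 2.74% of the own kidney and its *Kap* at 0.0194%. In the liver of CC040 the ratios were 5.15% for *Miox* and 0.400% for *Kap*. In lung, CC040 was the highest of 47 for *Miox* at 6.26 CPM, while CC036 and CC068 ranked 36 and 31. Over all strains *Miox* in kidney and liver gave r = 0.0961 by ranks (rho = 0.00486, p = 0.520, q = 0.842) and r = 0.466 on log2(CPM + 1) (q = 0.0212), a scale that keeps the size of these few values. It was the only one of 13 relations of a member between tissues to pass on either scale, and none of the 13 passed by ranks.

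Across kidneys the members varied to unequal degrees. Among 5967 genes with at least 10 CPM in kidney, the median SD of log2(CPM + 1) was 0.26. *Amn* (SD 0.62) stood at percentile 94.2 of these SDs, *Miox* (0.56) at 92.4 and *Kap* (0.45) at 87.7. *Cubn* (0.31), *Tmem174* (0.30), *Tmem27* (0.29) and *Lrp2* (0.27) stood between the 52.2 and 66.5 percentiles. The highest kidney exceeded the lowest 7.88 times for *Miox*, 7.04 times for *Amn* and 4.09 times for *Kap*, and between 2.49 and 2.83 times for *Lrp2*, *Cubn*, *Tmem27* and *Tmem174*. These SDs and ratios include the kidney of CC020, the lowest for *Lrp2*, *Cubn*, *Tmem174* and *Miox*. The second lowest kidneys held 4709, 857, 209 and 250 CPM of these genes.

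The kidney of CC020 had low levels of 6 of the 8 genes and the highest summed levels of injury, macrophage and fibroblast markers. It held 3188 CPM of *Lrp2*, which was 0.474 times the median kidney, 667 CPM of *Cubn* (0.514 times), 183 CPM of *Tmem174* (0.555 times) and 233 CPM of *Miox* (0.422 times), each the lowest of 47. *Kap* (0.424 times) and *Tmem27* (0.572 times) were second lowest. *Amn* was not low in it, at 43.5 CPM or 1.12 times the median, and *Dab2* was at 0.868 times. Summed markers of tubule injury were at 642 CPM in this kidney, against a median of 92.9 and at most 159 CPM in the others. Macrophage markers summed to 324 CPM (median 78.7, others up to 190.3) and fibroblast and pericyte markers to 428 CPM (median 69.7, others up to 153). *Lcn2*, an injury marker of tubules, was at 43.5 CPM and at most 8.44 CPM in the others, *Vcam1* at 92.4 against at most 29.6, *Sox9* at 8.71 against at most 1.17 and *Col1a1* at 136 against at most 25.96. *Clu* alone held 487 CPM of the injury sum. Some markers were not highest in this kidney. *Havcr1* (4.66 CPM), *Adgre1* (31.7 CPM) and *Cd68* (2.18 CPM) were second highest, *Pdgfra* ranked 6 from the highest, and *Pdgfrb* and *Cd163* were at 0. Of 20 other proximal tubule genes tested, 19 were below their median in this kidney and 8 were the lowest of 47, with *Slc13a1* the exception at 1.73 times its median. Its collecting duct and endothelial markers were also the lowest of 47, at 129.99 and 146 CPM, or 0.635 and 0.673 times the median, and those of the thick ascending limb and distal tubule ranked 3 from the lowest, at 0.407 times the median. The library had 3717587 counts, the fourth lowest kidney total, and 45.1% of them on *Rn45s*. This kidney was singled out after its values were seen, and strain and mouse cannot be told apart in it.

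**Figure D4:**
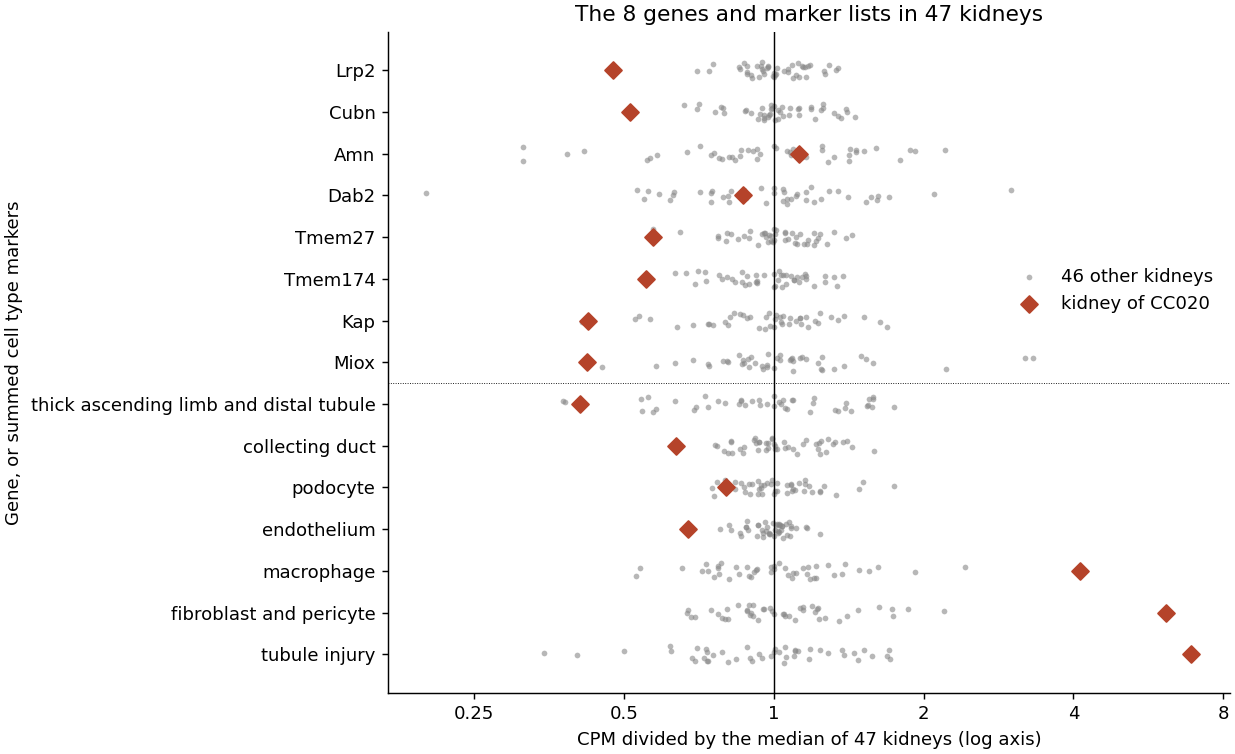
The 8 genes and the summed markers of 7 cell types or states in 47 kidneys, each divided by its median over kidneys, on a log axis. Red diamonds mark the kidney of CC020 and grey points the other 46. The diamond lies at the low end for 6 of the 8 genes and far to the right of every other kidney for the macrophage, fibroblast and injury markers.

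The study sequenced its libraries in batches that the labels do not give, so the relations across kidneys are not adjusted for batch, and its part in them was not tested. Of the 28 pairs of members, 4 correlated across the 47 kidneys at q ≤ 0.05 in a two-sided permutation test of rank-normalized TPM. *Lrp2* and *Cubn* gave r = 0.585 (p = 2e-05, q = 0.00056) and rho = 0.540 (p = 0.00013). *Tmem27* correlated with *Lrp2* (r = 0.474, p = 0.00088, q = 0.0123, rho = 0.425, p = 0.00327), with *Tmem174* (r = 0.446, p = 0.00179, q = 0.0167, rho = 0.361, p = 0.0135) and with *Miox* (r = 0.415, p = 0.00403, q = 0.0282, rho = 0.434, p = 0.00297). Without the kidney of CC020, 2 pairs remained at q ≤ 0.05, *Lrp2* with *Cubn* (r = 0.531, q = 0.00504) and *Tmem27* with *Lrp2* (r = 0.424, q = 0.0472). When each kidney was left out in turn, both pairs passed for all 47, and the count of pairs was 4 for 44 of the 47 and never below 2. Without the 2 kidneys farthest from the median of the first gene, r was 0.481 for *Lrp2* with *Cubn*, the only pair past the threshold in that setting, and 0.379, 0.345 and 0.328 for the *Tmem27* pairs with *Lrp2*, *Tmem174* and *Miox*. In TPM without TMM scaling all 28 pairs were positive and 23 passed, beside r between -0.888 and -0.416 for the 8 genes with the *Rn45s* share of the counts. After TMM scaling that relation ranged from -0.336 to 0.0770 and no gene passed q ≤ 0.05.

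*Amn*, the partner of cubilin, showed no relation past the threshold to either receptor, with r = 0.0363 to *Cubn* (p = 0.808) and 0.142 to *Lrp2* (p = 0.343). *Dab2* gave r from -0.273 to 0.151 with the other 7 and *Kap* from -0.161 to 0.293, and none of these passed. Among 5966 genes, *Lrp2* was the 11th most similar to *Cubn* by rho, and *Cubn* the 44th most similar to *Lrp2*. *Amn* ranked 2842 of 5966 in likeness to *Cubn*, at percentile 52.3.

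**Figure D5:**
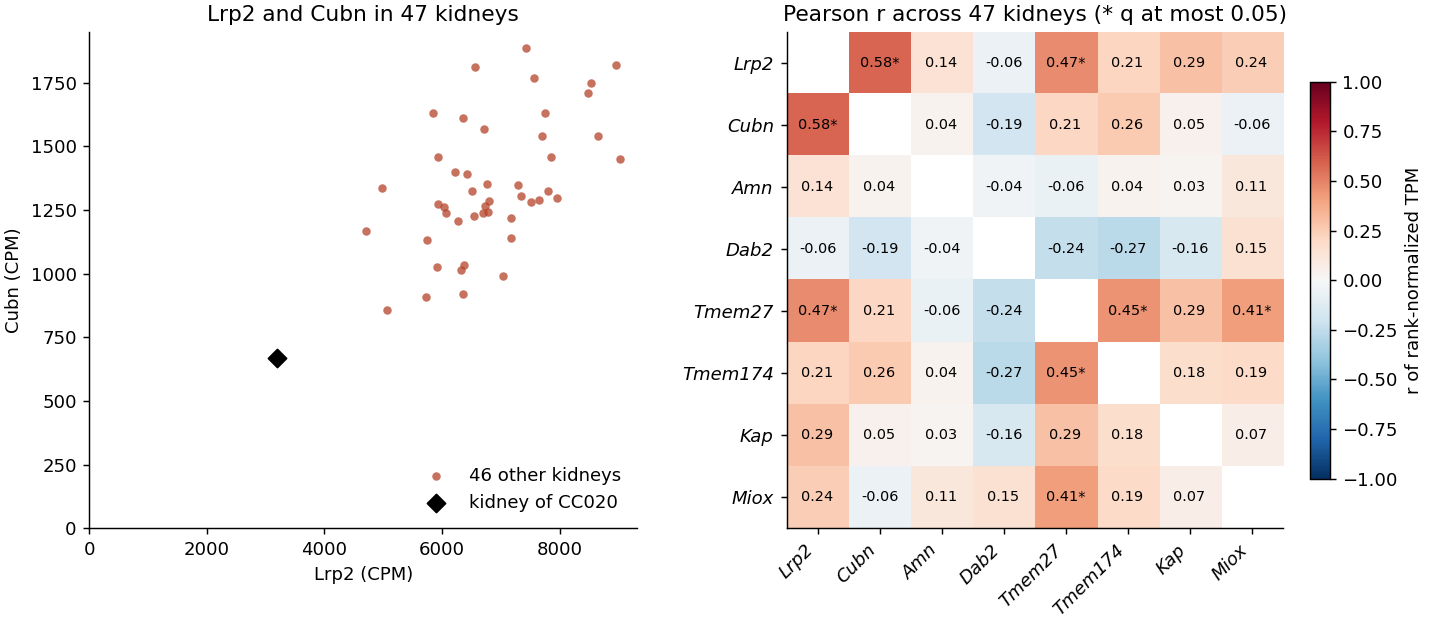
Left, *Lrp2* and *Cubn* CPM in 47 kidneys, with the kidney of CC020 as a black diamond in the lower left. Right, Pearson r of rank-normalized TPM for all 28 pairs across 47 kidneys, with asterisks at q of at most 0.05. The asterisks fall on *Lrp2* with *Cubn* and on *Tmem27* with *Lrp2*, *Tmem174* and *Miox*.

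The genes most like each member over the 47 kidneys are given by Spearman rho, as description. *Kap* was nearest to *Tmco3* (0.814), *Slc22a30* (0.795) and *Slco1a1* (0.765), the last an organic anion transporter on the androgen list. *Amn* was nearest to *Dohh* (0.790), *Ncln* (0.789) and *Nr2f6* (0.785). *Lrp2* was nearest to *Xpnpep1* (0.675), *Pbld1* (0.672) and *Cmbl* (0.671), and *Cubn* to *Plxdc2* (0.681), *Mettl7b* (0.608) and *D17Wsu92e* (0.601). *Tmem174* was nearest to *Cyp2j9* (0.672), *Narf* (0.638) and *Exoc6* (0.620), and *Tmem27* to *Nit2* (0.596), *Cryz* (0.584) and *Map3k15* (0.568). *Miox* was nearest to *Chtf8* (0.619), *Bphl* (0.618) and *Slc5a2* (0.617), the glucose transporter of the early tubule, and *Dab2* to *Cnot10* (0.551), *Rps24* (0.510) and *Pgrmc2* (0.464). The median rho of a member over all genes compared lay between -0.0434 and 0.0934.

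None of 56 relations between the 8 genes and 7 lists of kidney cell type markers passed q ≤ 0.05 by ranks in permutation tests, and 11 had an unadjusted p under 0.05. The most negative was *Tmem27* with fibroblast and pericyte markers (r = -0.445, rho = -0.412, p = 0.00157, q = 0.0879), followed by *Cubn* with macrophage markers (r = -0.410, p = 0.00418, q = 0.110). On log2(CPM + 1), 14 relations passed and all were negative, and without the kidney of CC020 none of them did. The sum of tubule injury markers ranged from 32.0 to 642 CPM over kidneys and that of macrophage markers from 41.5 to 324 CPM, with 3 of 6 and 7 of 8 genes above 3 counts in the median kidney. Their part in the levels of the 8 genes was not tested.

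Between liver and lung, 5 members were called higher in liver, *Kap*, *Tmem174*, *Tmem27*, *Amn* and *Miox*, and *Lrp2* lower, beside 23.9% of all genes higher in liver and 31.0% higher in lung. For *Tmem174*, *Tmem27* and *Amn* the median count was at most 3 in both tissues, and no fold is given. *Kap* differed by 1.35 (SE 0.19) and *Miox* by 2.09 (SE 0.16), and liver exceeded lung in 35 and 36 of 47 strains. These calls depended on scaling. Without TMM the median of all genes moved from -0.06 to -1.44, and only 3 members, *Lrp2*, *Cubn* and *Dab2*, were called, all lower in liver. Without the 3 livers that stood apart, *Kap* differed by 1.06 and *Miox* by 1.81.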

How the data were processed

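Total RNA of kidney, liver and lung from 1 male mouse of each of 47 strains was sequenced after ribosomal depletion (single-end reads). Per the paper's methods and the labels, the authors filtered reads on quality, removed adapters, aligned uniquely to strain-specific pseudo-genomes with STAR 2.5.3a (mm9, RefSeq annotation) and estimated abundance with RSEM. The deposited files held expected counts, TPM and FPKM per gene. The authors' expected counts were rounded (25 were not whole), and the deposited TPM and FPKM were used as given, FPKM only as an alternative. Whether reads were counted by strand is not given in the sources used here, and the sequencing batches that the study fitted in its models are not named in the labels, so no result here is adjusted for batch.

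Genes above 1 CPM in at least 30% of libraries (12127 of 24423) were fitted with limma 3.58.1 (voom weights, TMM factors from edgeR 4.0.16, R 4.3.3), with tissue and, as a replicate block, strain as terms, because 1 mouse per strain gave all 3 tissues. Adjustment was by Benjamini-Hochberg over all genes tested, and a call needed q ≤ 0.1 and a log2 fold change of at least 1 in size. Pearson's r was computed on rank inverse normal values of TMM-normalized TPM with 100000 permutations (numpy 2.4.6, scipy 1.17.1), adjusted within each family of relations, at q ≤ 0.05, and Spearman's rho beside it. Run on simulated counts for kidney and liver (12127 genes), the fit called 200 of 200 genes given a known change. The simulation drew all tissues from the same kidney means, without strain effects, and changed only well-counted genes by a large amount. It therefore does not test the fit at low counts or where tissues differ in composition.

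The genes and lists were chosen with earlier results of these data known. Named genes were all 8 members, the 3 genes with the highest rho to each among genes of at least 10 CPM in kidney, up to 3 genes per list and contrast with the largest called change, and the strains at the extremes. Other genes named were chosen after their values were seen. Alternatives were DESeq2 1.42.0, edgeR's quasi-likelihood test, other scalings, filters, thresholds and pseudocounts. Leaving out 3 livers or the kidney of CC020, the member pairs in liver and lung and the relations to library measures were added after seeing the data. Counts per library limit precision for *Dab2* in all tissues and for *Amn*, *Tmem27* and *Tmem174* in liver and lung. A result on 1 gene of the lists is not reported here.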

Additional observations from a re-analysis of the deposited data

How the results depend on the processing

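All 8 genes were called higher in kidney than in liver and than in lung under every alternative fit run, except that *Dab2* was not called on log2(TPM + 1), with differences of 0.98 and 0.55. With no replicate block for strain, the counts of called genes were 8, 8 and 6 as with it, and the block changed no call, while *Cubn* between liver and lung, 0.09 with the block and not called, was -0.026. Its value was also negative with DESeq2 size factors (-0.15), the DESeq2 Wald test (-0.036), total-count scaling (-1.23), log2(TPM + 1) (-0.48), log2(TPM + 0.1) (-1.13) and without the livers of 3 strains (-0.16). The count of 6 genes called between liver and lung was 3 with total-count scaling, 1 on log2(TPM + 1) and 3 on log2(TPM + 0.1), and 7 with the DESeq2 Wald test and at q ≤ 0.1 with no fold threshold, and *Kap* was -0.056 and -0.054 on these TPM scales. With total-count scaling and on the TPM scales the median of all genes moved from -0.06 to -1.44, -1.21 and -1.52. The 4 pairs called across kidneys became 23 in TPM without TMM, 1 without the 2 strains farthest from the median and 2 without the kidney of CC020. Relations called between tissues went from 0 to 1 on log2(CPM + 1), those with kidney markers from 0 to 14 on log2(CPM + 1) and 32 in TPM without TMM, and those with lung markers from 0 to 13 in TPM without TMM. Beyond what the settings do by construction, the cause was not tested.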
